A study of Mus musculus with 1 sample.

Results

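The 7 genes described here encode the ligand GDNF, the parts of its receptor and transcription factors held to lie downstream of it. They are Gdnf, Gfra1, Ret, Etv5, Bcl6b, Lhx1 and Pou3f1, chosen by symbol from the 27998 genes listed for the library. All 7 matched exactly 1 row of the gene list and 1 gene of the GENCODE annotation by identifier. GDNF, glial cell line-derived neurotrophic factor, is a secreted protein of the TGF-beta superfamily. It binds GFRA1, a co-receptor held on the cell surface by a lipid anchor, and the complex brings together and activates RET, a receptor tyrosine kinase that signals through SRC family kinases, PI3K and AKT, and RAS and ERK. In the testis, Sertoli cells and peritubular myoid cells are known sources of the ligand, and undifferentiated spermatogonia carry the receptor. GDNF supports self-renewal of spermatogonial stem cells, and ETV5, BCL6B, LHX1 and POU3F1 are transcription factors whose genes were found to respond to it in cultured spermatogonia.

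The data are the unique molecular identifier (UMI) counts of 1 single-cell library, made on the Chromium platform from wild-type C57BL/6 mice at postnatal day 8. Cells of 3 mice were combined before the library was made, so mice cannot be told apart. Spermatogonia were enriched with beads against the surface protein THY1, and unselected testis cells were added back. The shares of the cell types therefore depend on this preparation, and the part of each step in them was not tested. A library of mice without Zscan2 was not analysed here. The 970 barcodes carried between 2655 and 44915 UMIs each, with a median of 9115, and 920 cells were kept. With 1 library there is no replicate error, no test was made, and every interval below is a 95% interval for counting error alone.

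Germ cells numbered 324 and formed 3 clusters, numbered 0, 5 and 6. Levels are given as counts per 1000000 (CPM), the UMIs that a gene had in a group of cells divided by the total UMIs of that group. The 6 germ cell markers, among them Ddx4, Dazl and Zbtb16, summed to 1350 CPM in germ cells and 33.1 CPM in Sertoli-like cells, while the 6 Sertoli cell markers summed to 28.4 CPM in germ cells. The somatic classes were 255 Sertoli-like, 94 peritubular myoid-like, 186 stromal-like and 35 macrophage-like cells, and 26 cells stayed unnamed. The median depth was 18217 UMIs in germ cells, 8343 in Sertoli-like cells, 7446 in myoid-like cells, 8371 in stromal-like cells and 13010 in macrophage-like cells. Stromal-like cells also carried 448 CPM of the Leydig cell markers, and myoid-like cells 2209 CPM of the stromal markers. Red blood cell markers summed to 3028 CPM in the low germ cell range described next, against 98.3 and 102 CPM in the other ranges, and 1 barcode alone held 3604 UMIs of Hba-a1.

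Germ cells were divided by the summed UMIs of Kit, the receptor for stem cell factor, and Stra8, a gene induced by retinoic acid, both of which mark spermatogonia that enter differentiation. The low range held 180 cells with under 1 Kit plus Stra8 UMI per 10000 UMIs, the middle range 52 cells with 1 to under 5, and the high range 92 cells with 5 or more. The high range rests mainly on Stra8. In the 36 cells with 10 to under 20 per 10000, Stra8 had 677 UMIs and Kit 43, and in the 28 cells with 20 or more, 764 and 25. Kit stood at 102 CPM in the 27 cells with 2.5 to under 5 and at 80.8 CPM in those with 20 or more. The ranges are cuts along a scale, not cell types: 14 cells lay near the lower cut and 13 near the upper cut, within 25% of its value, and 140 cells had no UMI of either gene. Median depth was 19671, 17217 and 12336 UMIs in the low, middle and high range. CPM is scaled for these depths, whereas shares of cells with a UMI are not, so shares are also given for 5000 UMIs per cell.

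On the GRCm38 assembly (mm10), Gdnf lies on the plus strand of chromosome 15 from 7810846 to 7837575 and Gfra1 on the minus strand of chromosome 19 from 58235604 to 58455909. Ret lies on the minus strand of chromosome 6 from 118151745 to 118197718, and Etv5 on the minus strand of chromosome 16 from 22381309 to 22439719. Bcl6b, from 70224128 to 70229798, and Lhx1, from 84518284 to 84525535, are both on the minus strand of chromosome 11. Pou3f1, a gene of 1 exon, is on the plus strand of chromosome 4 from 124656807 to 124660655. No annotated gene overlaps any of the 7 on its own strand, while Gm16277 overlaps Gfra1 and Gm2164 overlaps Pou3f1 on the opposite strand.

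RefSeq promoters (GRCm38.p6, 250 bases before and 50 bases from the start) were at hand for 4 of the 7 genes, with 2 start sites each for Gdnf and Etv5. One start is shown for each of these 4, which are the ligand and 3 of the genes whose levels in germ cells lay highest in the low range. For Gdnf it is the start whose promoter held a match to the motifs named next. For Etv5, with no match at either start, it is the first. The Gdnf promoter shown lies inside the span given above for the gene, and that of its first start, from 7809798 to 7810097, lies before that span. Capitals mark matches on either strand to CGGAAG, a core bound by ETS factors such as ETV5, to TAATTA, a homeobox core, to ATGCAAAT, the POU octamer, or to TTCCNNGAA, a core bound by BCL6.
Gdnf, second start, chr15:7813477-7813776, plus strand: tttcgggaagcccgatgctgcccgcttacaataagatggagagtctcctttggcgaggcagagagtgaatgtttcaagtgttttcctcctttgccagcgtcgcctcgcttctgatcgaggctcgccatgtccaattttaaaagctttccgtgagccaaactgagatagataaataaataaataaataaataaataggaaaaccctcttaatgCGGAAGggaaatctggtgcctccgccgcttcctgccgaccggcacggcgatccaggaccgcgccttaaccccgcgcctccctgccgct
Gfra1, chr19:58455349-58455648, minus strand: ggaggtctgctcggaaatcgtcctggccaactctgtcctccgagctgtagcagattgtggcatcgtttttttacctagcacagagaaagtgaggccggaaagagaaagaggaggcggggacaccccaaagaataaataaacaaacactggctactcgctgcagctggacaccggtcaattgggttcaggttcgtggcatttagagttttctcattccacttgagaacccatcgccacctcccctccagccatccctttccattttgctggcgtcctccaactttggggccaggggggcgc
Etv5, first start, chr16:22439521-22439820, minus strand: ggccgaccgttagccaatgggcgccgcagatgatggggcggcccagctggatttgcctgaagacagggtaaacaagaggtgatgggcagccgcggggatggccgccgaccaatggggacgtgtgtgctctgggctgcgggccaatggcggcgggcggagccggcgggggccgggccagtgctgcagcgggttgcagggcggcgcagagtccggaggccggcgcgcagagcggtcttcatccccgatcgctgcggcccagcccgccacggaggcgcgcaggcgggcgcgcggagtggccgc
Lhx1, chr11:84525485-84525784, minus strand: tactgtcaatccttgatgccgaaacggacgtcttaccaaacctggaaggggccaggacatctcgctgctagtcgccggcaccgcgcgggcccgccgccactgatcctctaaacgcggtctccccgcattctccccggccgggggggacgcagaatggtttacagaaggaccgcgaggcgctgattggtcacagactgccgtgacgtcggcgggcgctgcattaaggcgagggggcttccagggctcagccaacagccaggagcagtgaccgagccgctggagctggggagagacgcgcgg
The only match in the 6 promoters was CGGAAG in that of the second Gdnf start, which begins at base -38 from the start, so no matches overlap. CGGAAG occurred in 16.9% of the 32851 promoters of this length, TAATTA in 5.29%, ATGCAAAT in 1.74% and TTCCNNGAA in 4.81%. A match is a description of letters, and a window without one says nothing about the factor. The G and C content was 74.0% and 60% in the promoters of the first and second Etv5 starts and 65.7% in that of Lhx1, against a median of 52.7% over all promoters, with 54.0% for Gfra1 and 51.7% for Gdnf.

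Among the named classes, transcripts of the ligand were found in Sertoli-like and peritubular myoid-like cells and nearly nowhere else. Sertoli-like cells held 57 Gdnf UMIs in 46 of 255 cells, a level of 24.8 CPM (18.8 to 32.2). Myoid-like cells held 13 UMIs in 10 of 94 cells, 17.6 CPM (9.35 to 30.02). The level in Sertoli-like cells was 1.41 times that in myoid-like cells, with an interval from 0.765 to 2.82 that includes equal levels. Their share of cells with a Gdnf UMI was 18.0% (13.5 to 23.3) and 10.6% (5.22 to 18.7), or 11.2% and 7.52% at 5000 UMIs per cell. No cell held more than 3 Gdnf UMIs.

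Stromal-like cells had no Gdnf UMI in 186 cells, which allows a share of up to 1.61% and a level of up to 1.83 CPM. The level in Sertoli-like cells was thus at least 13.6-fold higher than in stromal-like cells, and that in myoid-like cells at least 9.61-fold higher, with the limit of 3 UMIs set over all stromal-like cells. The conditional intervals of these ratios start at 10.7-fold and 6.76-fold. Macrophage-like cells had none in 35 cells, which allows up to 8.57% of cells and 5.81 CPM, so this small class says little. The 26 unnamed cells had none either, which allows up to 11.5% of cells and 18.2 CPM, above the level in myoid-like cells. No cluster was named endothelial or Leydig, so these cell types could not be judged as sources in classes of their own. Among the stromal-like cells, 9 had a UMI of the Leydig marker Hsd3b1 and 16 one of Lhcgr, and none of them had Gdnf. The unnamed cells carried 588 CPM of the endothelial markers, beside 1394 CPM of T cell and 2484 CPM of myoid markers. Germ cells, the class that held nearly all transcripts of the receptor genes, held 3 Gdnf UMIs in 324 cells, 1 in each range, at 0.540 CPM (0.111 to 1.58). That is 0.926% of germ cells, at a median depth of 18217 UMIs against 8343 in Sertoli-like cells, and the level in Sertoli-like cells was 46.0-fold higher (15.0 to 230). No background level was estimated, so the source of these 3 germ cell UMIs was not tested.

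Sertoli-like cells fell into 3 clusters whose Gdnf levels did not differ beyond counting error. Cluster 2 held 34 UMIs in 132 cells, at 29.9 CPM (20.7 to 41.8), cluster 4 held 10 in 78 cells, at 14.5 CPM (6.95 to 26.6), and cluster 7, with the cell cycle genes Prc1 and Ube2c among its leading genes, held 13 in 45 cells, at 27.7 CPM (14.8 to 47.4). The largest gap, cluster 2 over cluster 4, was 2.06-fold with an interval from 0.997 to 4.69. The pattern of Gdnf across the somatic classes was unlike that of the other factors for spermatogonia on the list. Kitl, the ligand of KIT, stood at 201 CPM (183 to 220) in Sertoli-like cells, 39.6 CPM in stromal-like cells and 8.10 CPM in myoid-like cells. Cxcl12, a chemokine, stood at 628 CPM (590 to 668) in stromal-like cells and 1.74 CPM in Sertoli-like cells. Csf1, a growth factor of macrophages, and Fgf2, a fibroblast growth factor, were at 17.7 CPM and 16.4 CPM in stromal-like cells and at 0.871 CPM each in Sertoli-like cells. Of these 5 ligands, Gdnf alone had UMIs in Sertoli-like and myoid-like cells and none in stromal-like cells.

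**Figure D1:**
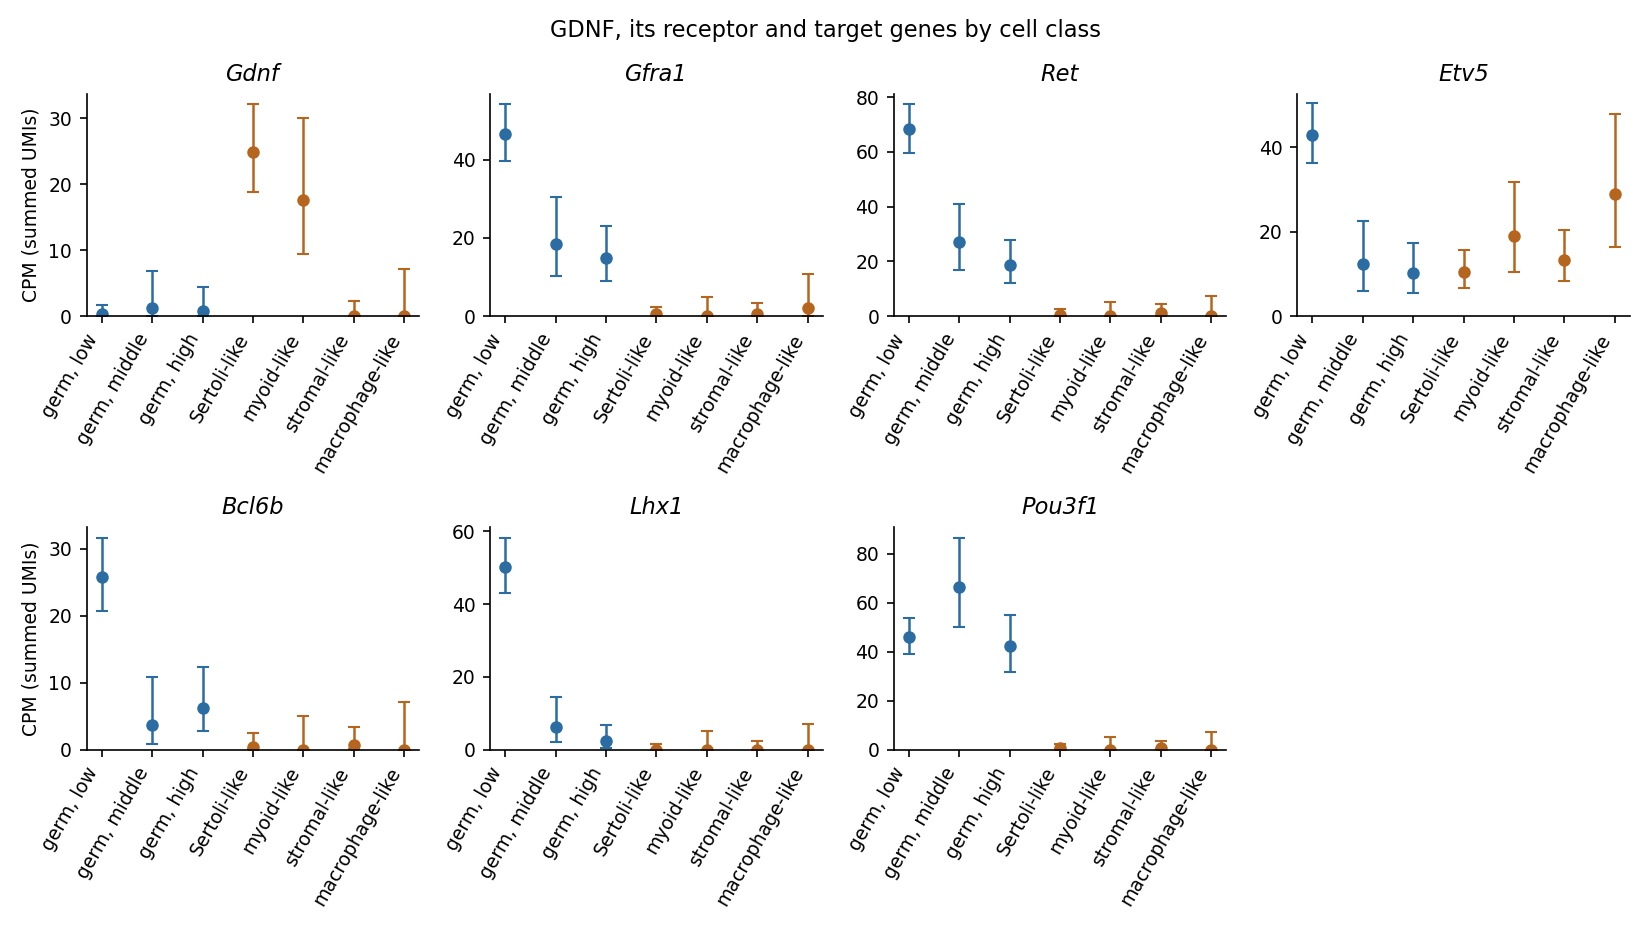
Level of each of the 7 genes, in CPM from summed UMIs (vertical axes, each with its own scale), in the 3 germ cell ranges (blue) and 4 somatic classes (brown) of the 1 library; points are levels and bars 95% Poisson intervals for counting error. Gdnf stands at 24.8 CPM in Sertoli-like and 17.6 CPM in myoid-like cells, the receptor genes are at their highest in the low range, and Etv5 alone among the other 6 has over 10 CPM in somatic classes.

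The receptor genes were nearly confined to germ cells in this library. Gfra1 had 195 UMIs in germ cells and 3 in the 596 other cells, 1 each in a Sertoli-like, a stromal-like and a macrophage-like cell, which is 62.7-fold higher in germ cells (21.1 to 307). Ret had 282 UMIs in germ cells and 3 in the other cells, 90.7-fold higher (30.7 to 442). In Sertoli-like cells, 0.392% of cells had a Gfra1 UMI and 0.392% a Ret UMI, against 29.9% and 39.5% of germ cells. Myoid-like cells had no UMI of either gene in 94 cells, which allows a level of up to 4.05 CPM and a share of up to 3.19%.

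Within germ cells the co-receptor was at its highest in the low range. Gfra1 stood at 46.5 CPM (39.6 to 54.3, 161 UMIs) in the low range, 18.4 CPM (10.3 to 30.4, 15 UMIs) in the middle range and 14.8 CPM (8.94 to 23.2, 19 UMIs) in the high range. The low range exceeded the high range by 1.65 on the log2 scale (0.96 to 2.42), and the middle and high ranges did not differ beyond counting error, at 0.31 (-0.77 to 1.37). Gfra1 was found in 79 of the 180 low cells, 43.9% (36.5 to 51.5), of which 42 held 1 UMI, 11 held 2 and 26 held 3 or more. The share was 13.5% in the middle and 12.0% in the high range. At 5000 UMIs per cell it was 18.4%, 6.71% and 6.35%.

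The signalling receptor followed the co-receptor. Ret stood at 68.2 CPM (59.8 to 77.5, 236 UMIs) in the low range, 27.0 CPM (16.9 to 40.9) in the middle range and 18.7 CPM (12.0 to 27.9, 24 UMIs) in the high range. Its log2 ratio of low over high was 1.86 (1.25 to 2.53). Ret was found in 105 low cells, 58.3% (50.8 to 65.6), in 21.2% of middle cells and in 13.0% of high cells, or in 26.8%, 9.68% and 6.15% at 5000 UMIs per cell.

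Among the target genes, Lhx1, a LIM homeobox factor, showed the sharpest contrast. It had 174 UMIs in the low range, 5 in the middle range and 3 in the high range, or 50.3 CPM (43.1 to 58.3), 6.15 CPM (1.996 to 14.3) and 2.34 CPM (0.483 to 6.85). Low over high was 4.42 on the log2 scale (2.85 to 6.71), rank 9 of 7702 genes compared. Lhx1 was found in 56 low cells, 31.1% (24.4 to 38.4), of which 26 held 3 or more UMIs and 1 held 12. No UMI was found in the 596 other cells, so the germ cell level was at least 58.5-fold higher against the limit of 3 UMIs, with a conditional interval that starts at 47.1-fold.

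Etv5, an ETS factor, stood at 43.0 CPM (36.4 to 50.5, 149 UMIs) in the low range, 12.3 CPM (5.89 to 22.6) in the middle range and 10.2 CPM (5.41 to 17.4, 13 UMIs) in the high range, a log2 ratio of low over high of 2.08 (1.27 to 3.03). Unlike the receptor genes it was also found in somatic cells, with 76 UMIs there and a germ cell level 2.18-fold higher (1.66 to 2.90). Its somatic levels were 10.5 CPM (6.70 to 15.6) in Sertoli-like, 13.4 CPM (8.40 to 20.3) in stromal-like, 18.9 CPM (10.3 to 31.7) in myoid-like and 29.1 CPM (16.3 to 47.9) in macrophage-like cells. The high range thus lay no higher than any of these classes, and the low range lay above all but the macrophage-like cells by intervals that do not overlap.

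Bcl6b, a zinc finger repressor, stood at 25.7 CPM (20.6 to 31.6, 89 UMIs) in the low range, 3.69 CPM (0.760 to 10.8) in the middle range and 6.25 CPM (2.70 to 12.3, 8 UMIs) in the high range. Its log2 ratio of low over high was 2.04 (1.0 to 3.30). It was found in 45 low cells, 25% (18.9 to 32.0), and 1 of them held 12 of the 89 UMIs. Outside germ cells it had 3 UMIs.

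Pou3f1, a POU domain factor, did not follow the other 5. It stood at 45.9 CPM (39.1 to 53.7, 159 UMIs) in the low range, 66.4 CPM (49.9 to 86.6, 54 UMIs) in the middle range and 42.2 CPM (31.7 to 55.0, 54 UMIs) in the high range. Low over high was 0.12 on the log2 scale (-0.33 to 0.60), so a 2-fold difference in either direction lies outside the interval. Low over middle was -0.53 (-0.98 to -0.06), the middle range being the higher. Pou3f1 was found in 53.9% of low, 51.9% of middle and 27.2% of high cells, or 20.1%, 25.9% and 15.5% at 5000 UMIs per cell. Like the receptor genes it was a germ cell transcript, with 267 UMIs in germ cells and 2 elsewhere, 129-fold higher (35.3 to 1069).

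Of the 6 members with at least 50 UMIs in the low and high ranges together, 5 were at least 2-fold higher in the low range, against 3.90% of the 7702 genes with as many UMIs. None was at least 2-fold higher in the high range, against 2.95% of genes. The study used Gfra1, Ret, Etv5, Bcl6b, Lhx1 and Id4 as stem cell markers in these libraries, so their direction is not independent evidence. Gdnf had too few UMIs in germ cells to be counted. The count of 5 was the same without the barcode rich in hemoglobin transcripts. The median log2 ratio was 1.95 over the 6 members and -0.11 over all 7702 genes, so each ratio above would be about that much larger relative to the typical gene. Ranked by this ratio, Etv5 was at place 62, Bcl6b at 66, Ret at 83, Gfra1 at 119 and Pou3f1 at 2172.

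**Figure D2:**
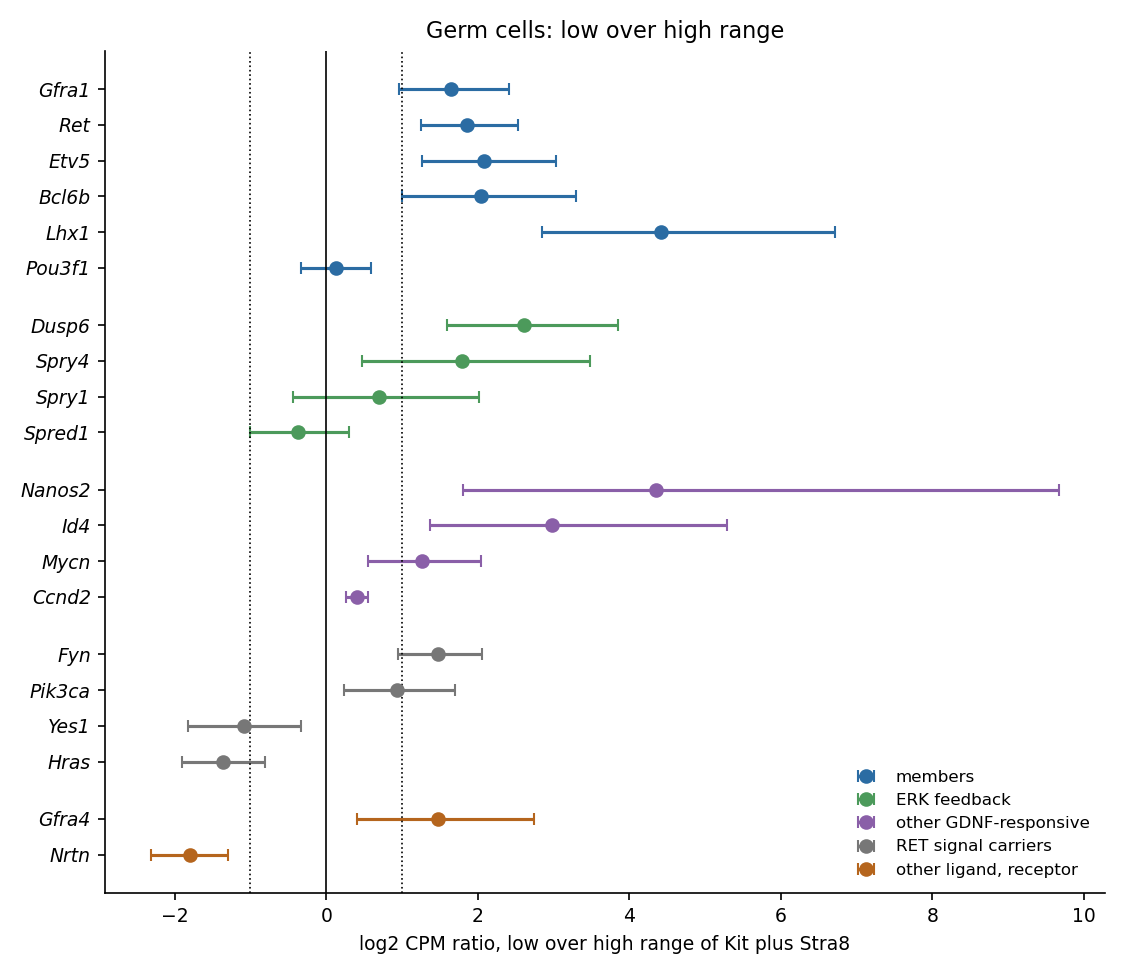
Log2 ratio of CPM in the low over the high range of Kit plus Stra8 (horizontal axis) for 6 members and for named genes of 4 other lists, with bars for 95% conditional binomial intervals (counting error); dotted lines mark 2-fold. Lhx1 (4.42) and Nanos2 (4.35) lie farthest to the right, Pou3f1 (0.12) lies at the centre line and Nrtn (-1.80) farthest to the left.

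The change along Kit plus Stra8 was not even. In cells with none of these UMIs, Gfra1 stood at 52.2 CPM, Ret at 73.5 CPM, Etv5 at 49.8 CPM and Lhx1 at 55.7 CPM. In the 40 cells with some but under 1 per 10000, the same genes stood at 31.1, 53.7, 24.7 and 35.4 CPM, whereas Bcl6b stood at 25.3 CPM in the first and 26.8 CPM in the second of these steps. From 1 to under 2.5 per 10000 the levels were 14.6 CPM for Gfra1, 29.3 CPM for Ret, 9.76 CPM for Etv5, 2.44 CPM for Bcl6b and 9.76 CPM for Lhx1. Ret was still at 20.7 CPM, from 10 UMIs, in the 36 cells with 10 to under 20, and at 6.46 CPM, from 2 UMIs, in the 28 cells with 20 or more. Pou3f1 was at its highest, 84.2 CPM, in the 27 cells with 2.5 to under 5, and at 12.9 CPM, from 4 UMIs, in the last step. Median depth was 8845 and 9617 UMIs in the last 2 steps, against 19409 in the first.

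**Figure D3:**
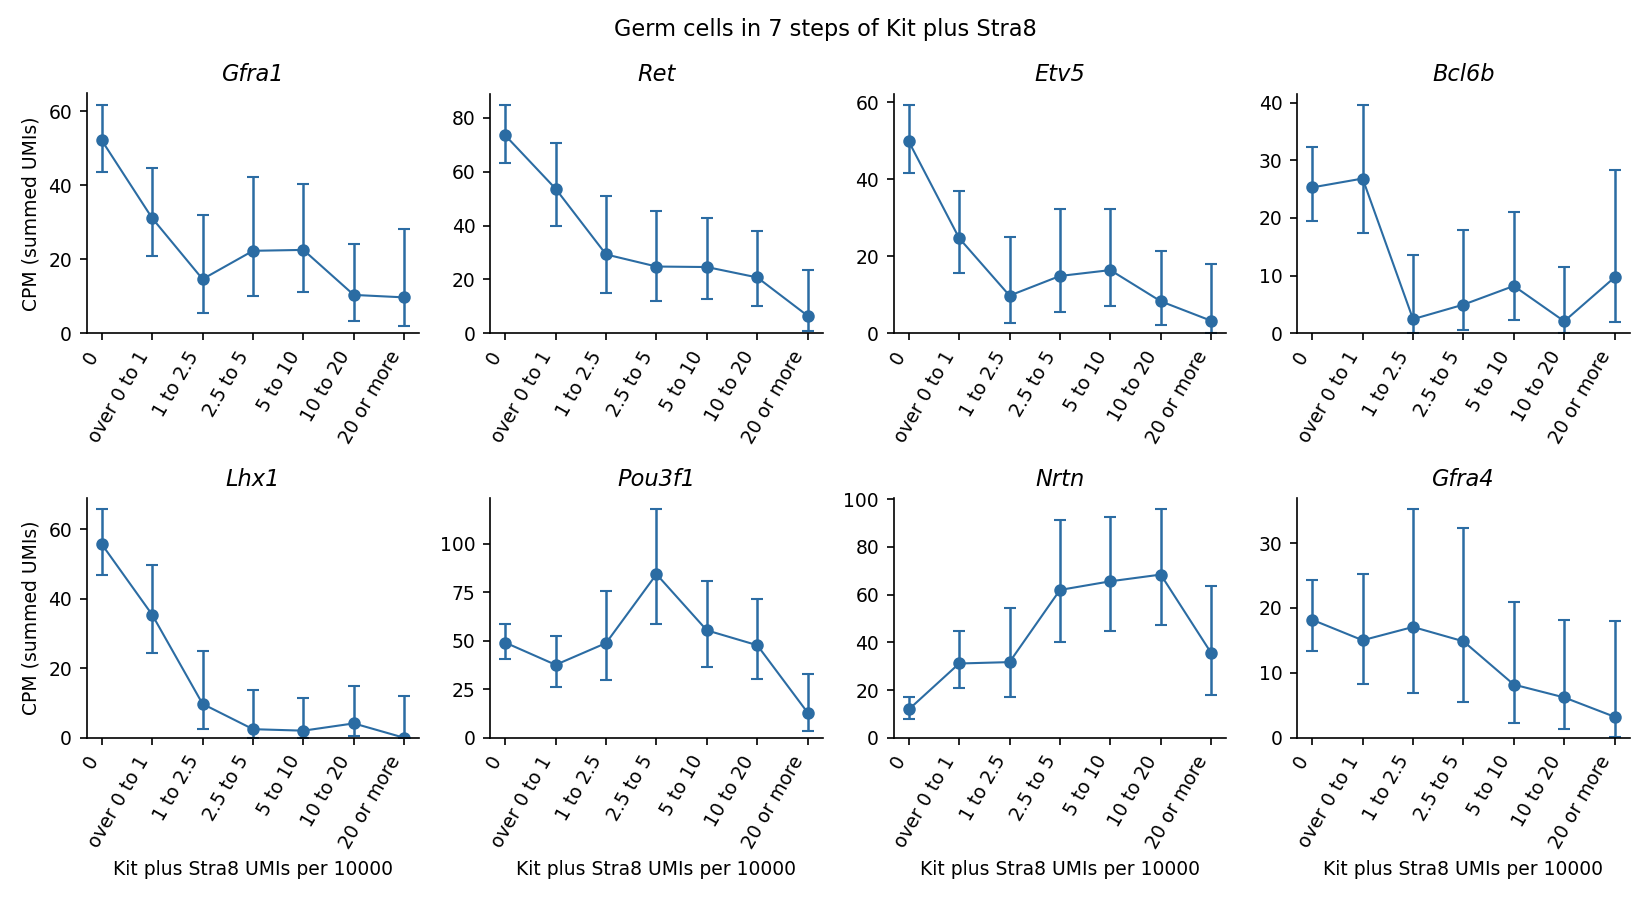
CPM of 6 members, Nrtn and Gfra4 (vertical axes, each with its own scale) in 7 steps of Kit plus Stra8 UMIs per 10000 UMIs (horizontal axis) in the 324 germ cells, with 95% Poisson intervals for counting error. Lhx1 goes from 55.7 CPM to no UMI, Pou3f1 peaks at 84.2 CPM in the fourth step, and Nrtn is at its lowest, 11.9 CPM, in cells with no Kit or Stra8 UMI.

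Much of what remained of the receptor in the high range came from a small set of cells. The clusters were formed without the 7 genes among the variable genes, although Ret, Lhx1 and Gfra1 were among the genes that set cluster 0 most apart. In all, 23 of the 92 high cells belonged to cluster 0, the cluster that also held 153 of the 180 low cells. Those 23 cells carried 487577 of the 1280018 UMIs of the high range, and the 40 high cells of cluster 5 carried 650297. The 29 high cells of cluster 6 were shallow, with 142144 UMIs together, so few receptor UMIs could be found in them. These 23 cells held 18 of the 19 Gfra1 UMIs of the high range, 23 of 24 Ret UMIs, all 13 Etv5 UMIs and 6 of 8 Bcl6b UMIs. They carried Stra8 at 1136 CPM and Kit at 49.2 CPM, against 1452 CPM and 109 CPM in the 40 high cells of cluster 5. Their median depth was 22215 UMIs, against 20451 in the low cells of cluster 0 and 16174 in the high cells of cluster 5. Their median doublet score was 0.00817, against 0.00464 and 0.00428. Barcodes called doublets had been left out before clustering, so no cell here could carry a call. The part of doublets in this pattern was not tested.

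Inside cluster 0 the ratios of the receptor genes were smaller than over all germ cells, while that of Lhx1 was large. Gfra1 was at 49.6 CPM (42.3 to 58.0) in the low and 36.9 CPM (21.9 to 58.3) in the high cells, a log2 ratio of 0.43 (-0.28 to 1.22). Ret was at 72.9 CPM and 47.2 CPM, a log2 ratio of 0.63 (0.01 to 1.31), and Etv5 at 45.9 CPM and 26.7 CPM, a log2 ratio of 0.78 (-0.03 to 1.73). The 12 middle cells of this cluster held Gfra1 at 50.7 CPM (27.7 to 85.0, 14 UMIs), not below its low cells. Ret was at 76.0 CPM (47.1 to 116, 21 UMIs) there, also not below, and Etv5 at 25.3 CPM (10.2 to 52.2, 7 UMIs). Of all 52 middle cells 12 belonged to cluster 0, against 153 of the 180 low cells. Lhx1 was at 54.0 CPM (46.3 to 62.6) and 4.10 CPM (0.497 to 14.8, 2 UMIs), a log2 ratio of 3.72 (1.84 to 6.78), and already at 10.9 CPM, from 3 UMIs, in the 12 middle cells. Bcl6b was at 27.6 CPM (22.2 to 34.0) and 12.3 CPM (4.52 to 26.8), a log2 ratio of 1.17 (-0.01 to 2.65). Nanos2, an RNA-binding factor of the stem cell state, was at 16.8 CPM in the low and 2.05 CPM, from 1 UMI, in the high cells. Pou3f1 was at 48.1 CPM (40.8 to 56.3), 76.0 CPM (47.1 to 116) and 22.6 CPM (11.3 to 40.4) in the low, middle and high cells of this cluster. With cluster 0 alone, 3 of the 6 members, Bcl6b, Lhx1 and Pou3f1, were at least 2-fold higher in the low range, against 4.17% of the 6899 genes with at least 50 UMIs there.

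In cluster 5, led by Esx1, Prss50 and Ly6k, the receptor and 3 of the targets were almost absent while Pou3f1 was not. Its 74 cells, with a median of 17327 UMIs, held 2 UMIs of Gfra1, 2 of Ret, 1 of Etv5, 1 of Bcl6b and 2 of Lhx1, that is 1.59, 1.59, 0.796, 0.796 and 1.59 CPM. Pou3f1 had 74 UMIs there, 58.9 CPM (46.2 to 73.9), and was found in 36 cells. In its 40 high cells Pou3f1 stood at 63.0 CPM (45.2 to 85.5), which exceeded the high cells of cluster 0 with a log2 ratio of cluster 0 over cluster 5 of -1.48 (-2.59 to -0.50). The contrast of clusters is a description, since the same cells formed them. Cluster 6, of 62 shallow cells with a median of 3905 UMIs, held 1 UMI each of Gfra1, Ret, Bcl6b and Lhx1, 3 of Etv5 and 6 of Pou3f1. In it 1 UMI is worth 3.21 CPM, so low levels were not measurable.

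**Figure D4:**
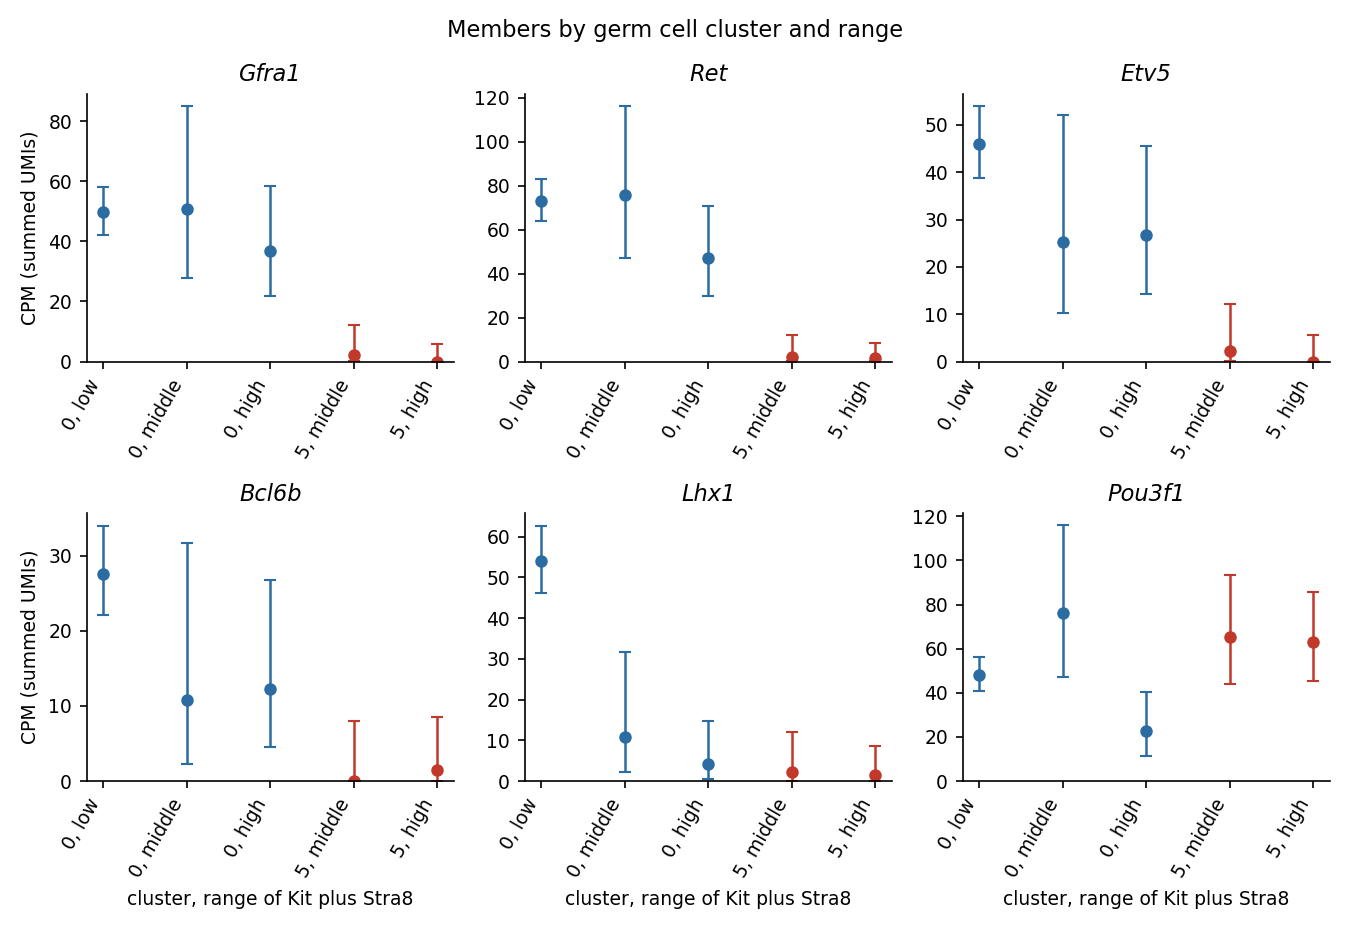
CPM of 6 members (vertical axes, each with its own scale) in the low, middle and high range of Kit plus Stra8 in cluster 0 (blue) and in the middle and high range in cluster 5 (red), with 95% Poisson intervals for counting error. Gfra1 and Ret are at 36.9 and 47.2 CPM in the high cells of cluster 0, Lhx1 is at 4.10 CPM there, and Pou3f1 is at 63.0 CPM in the high cells of cluster 5.

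The receptor and its co-receptor were often found in the same cell. In the low range, 63 of 180 cells (35.0%, 28.1 to 42.4) had UMIs of Gfra1 and Ret, 16 cells had Gfra1 alone, 42 had Ret alone and 59 (32.8%) had neither. Median depth was 22661 UMIs in the cells with both and 16314 in those with neither, so detection moved with depth. At 5000 UMIs per cell, both were expected in 6.73% of the low cells, and Ret in 36.6% of the cells with Gfra1 and in 24.6% of those without it. In the high range 7 of 92 cells had both and 76 had neither.

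All 15 pairs among the 6 members went the same way in the low range. The second gene was found more often in cells with the first than in cells without it, by 1.05 to 2.36 times with a median of 1.56, over the 165 cells with at least 5000 UMIs. Lhx1 formed the strongest pairs, at 29.8% of cells with Gfra1 against 12.7% without, at 29.9% against 12.9% for Etv5, and at 32.6% against 14.1% for Bcl6b. Pou3f1 formed the weakest, at 21.1% of cells with Bcl6b against 20.04% without and at 23.2% against 19.0% for Ret. All 6 members were found together in 10 low cells, 5 of them in 26, and none in 36. In the high range, over 70 cells with few UMIs of most members, 10 of the 15 pairs went this way and 5 the other way, 3 of these with Pou3f1. The pairs share cells and library, so they are 1 description and not 15. With genes outside the 7, pairs went both ways in the low range. Nanos2 was found in 11.3% of cells with Gfra1 against 6.14% without, and Neurog3 in 2.24% against 8.32%. No share over other gene pairs was computed, so the count of 15 has no background.

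**Figure D5:**
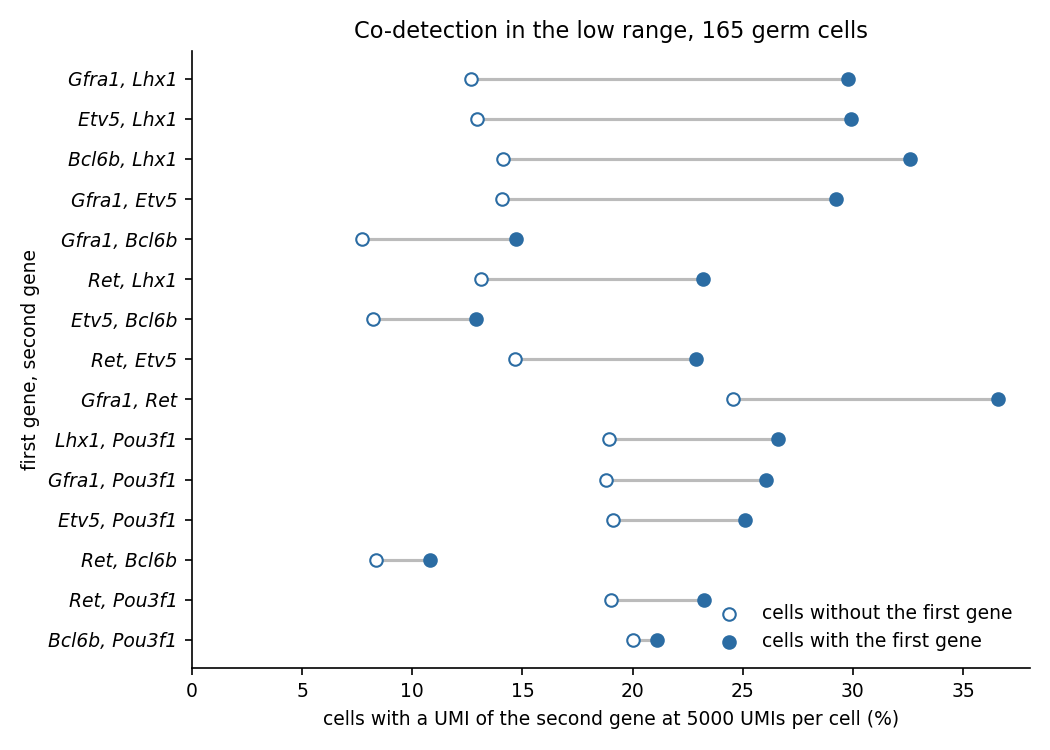
Share of low-range germ cells with a UMI of the second gene of each pair (horizontal axis, percent, expected at 5000 UMIs per cell), in cells with the first gene (filled points) and without it (open points), over 165 cells. In all 15 pairs the filled point lies to the right, with the widest gap for Bcl6b and Lhx1 (32.6% against 14.1%) and the narrowest for Bcl6b and Pou3f1 (21.1% against 20.04%).

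The low range was itself mixed. Neurog3, a bHLH factor of progenitor spermatogonia, was found in 30 of the 180 low cells, and the split by it was chosen after values were seen. Median depth was alike, 19680 UMIs with and 19671 without. In the cells with Neurog3, Gfra1 stood at 15.7 CPM against 52.6 CPM without, a log2 ratio of -1.75 (-2.90 to -0.78). Lhx1 stood at 3.48 CPM, from 2 UMIs, against 59.6 CPM, a log2 ratio of -4.10 (-7.15 to -2.22). Etv5 was at 15.7 CPM against 48.5 CPM, Bcl6b at 12.2 against 28.4 CPM, Ret at 38.3 against 74.1 CPM, and Pou3f1 at 26.1 against 49.9 CPM, with all 4 intervals of the ratio below equal levels. Nanos2 was at 15.7 CPM against 15.9 CPM. All 6 members were thus lower in the low cells with Neurog3, Lhx1 by the most. No share over all genes was computed for this split, so the count of 6 has no background.

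Beyond the 7 genes, the family held a second ligand whose pattern ran against the receptor. Nrtn, encoding neurturin, which signals through RET with GFRA2 as its preferred co-receptor, had 173 UMIs in germ cells and stood at 17.0 CPM (13.0 to 22.0) in the low, 46.7 CPM (33.1 to 64.1) in the middle and 59.4 CPM (46.8 to 74.3) in the high range. Its log2 ratio of low over high was -1.80 (-2.32 to -1.29), and inside cluster 0 it stood at 15.5 CPM in low and 53.3 CPM in high cells. In somatic cells it was highest in myoid-like cells, at 24.3 CPM (14.4 to 38.4). Gfra2 had 2 UMIs in germ cells. Gfra4, the co-receptor of persephin, stood at 17.3 CPM (13.2 to 22.3) in the low and 6.25 CPM (2.70 to 12.3) in the high range, a log2 ratio of 1.47 (0.40 to 2.75), and Mir6973b lies within it on the same strand. Gfra3, the co-receptor of artemin, had 16 UMIs in the low and 14 in the high range, a log2 ratio of -1.24 (-2.37 to -0.10). Artn, Pspn and Gfral had none in the low and high ranges. Ncam1, which can bind GDNF without RET, had 15 UMIs in the low and none in the high range.

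The genes that carry the signal inside the cell showed no shared direction. Of 27 listed carriers of the RET signal, 19 had enough UMIs to be counted, and 1 was at least 2-fold higher in the low range and 2 in the high range, with a median log2 ratio of -0.06. Over all genes the shares were 3.90% and 2.95%. The count of 1 lies near the first of these, and the count of 2 lies above the second. The 1 was Fyn, a SRC family kinase, at 71.9 CPM in the low and 25.8 CPM in the high range (log2 ratio 1.48, 0.95 to 2.05). The 2 were Hras, at a log2 ratio of -1.36 (-1.91 to -0.81), and Yes1, another SRC family kinase, at -1.08 (-1.82 to -0.33). Pik3ca, the catalytic subunit of PI3K, stood at 29.8 CPM and 15.6 CPM, with a log2 ratio of 0.93 (0.23 to 1.70).

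ERK signalling induces genes that dampen it in turn, and some of these were higher in the low range. Of 6 in this list, 4 were counted and 3 (Dusp6, Spry4 and Spred2) were at least 2-fold higher in the low range, none in the high range, against 3.90% and 2.95% of all genes. Dusp6, an ERK phosphatase, stood at 38.1 CPM (31.9 to 45.2) in the low and 6.25 CPM (2.70 to 12.3) in the high range, a log2 ratio of 2.61 (1.59 to 3.85). Spry4 followed at 1.80 (0.47 to 3.49), and the smallest ratios were those of Spry1, at 0.69 (-0.44 to 2.01), and Spred1, at -0.37 (-1.01 to 0.30). Dusp6 was also found in somatic cells, at 34.4 CPM in Sertoli-like and 105 CPM in macrophage-like cells. At 5000 UMIs per cell Dusp6 was found in 27.2% of low cells with Gfra1 and 12.6% of those without. The shares were 20.8% and 13.3% for Ret, and 14.2% and 15.5% for Pou3f1.

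Of 10 other genes held to respond to GDNF, 6 were counted and 5 (Nanos2, Id4, Egr2, Etv4 and Mycn) were at least 2-fold higher in the low range, none in the high range, against 3.90% and 2.95% of all genes. The same shares apply to the lists that follow. All gene lists were chosen with earlier results of these data known, and Id4 was among the study's stem cell markers, so the counts are descriptions. Nanos2 had 55 UMIs in the low range and 1 in the high range, 15.9 and 0.781 CPM, and Id4, an inhibitor of bHLH factors, had 64 and 3, 18.5 and 2.34 CPM. Mycn, at a log2 ratio of 1.26 (0.56 to 2.04), and the cyclin gene Ccnd2, at 0.40 (0.26 to 0.54), had the smallest ratios. Of 12 listed genes of the undifferentiated state, 9 were counted and 1, Nanos3, was at least 2-fold higher in the low range, at 79.4 CPM against 34.4 CPM. Eomes had 21 UMIs in the low range and none in the high range, at least 2.59-fold higher against the limit of 3 UMIs, with a conditional interval that starts at 1.93-fold. Sall4, at -0.48 (-0.78 to -0.17), and Rarg, at -0.71 (-1.50 to 0.10), had the lowest ratios. Of the 7 genes of differentiation, 4 were at least 2-fold higher in the high range and 3, Sohlh1, Dmrtb1 and Uchl1, were under 2-fold. Among the 4, Kit and Stra8 define the ranges. The rest were Rhox13, at a log2 ratio of -1.55 (-1.90 to -1.20), and Sycp3, at -1.31 (-1.52 to -1.11).

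The genes outside the 7 most like each member across the 324 germ cells, by Pearson correlation of log-normalized expression among 6064 genes with at least 100 UMIs, overlapped. The members themselves were left out of this ranking, although Gfra1 with Etv5 (r = 0.49) and Bcl6b with Lhx1 (r = 0.41) exceeded some of the values behind it. For Gfra1 they were Pdzd2 (r = 0.61), Ccnd2, Fst, Rasgrp2 and Nefm. For Lhx1 they were Pdzd2 (r = 0.57), Fst, Tcl1, Pqlc1 and Nefm. For Ret they were Tcl1 (r = 0.515), Nefm, Ccnd2, Sox4 and Helz, and for Etv5 Nefm (r = 0.55), Rasgrp2, Pdzd2, Ccnd2 and Aplp1. Bcl6b was led by Tgfb1 (r = 0.50), the gene of transforming growth factor beta, followed by Tcl1, Ccnd2, Rasgrp2 and Pdzd2. Pou3f1 had lower values and another set, Mprip (r = 0.33), Stt3b, Hjurp, Rcc2 and Zfp91. Within the 180 low cells, Pdzd2 still led for Gfra1 (r = 0.59) and Tgfb1 for Bcl6b (r = 0.55), Fst led for Lhx1 (r = 0.55), Ccnd2 for Ret (r = 0.47) and Etv5 (r = 0.51), and Rpn1 for Pou3f1 (r = 0.36). These are cells of 1 library that differ in depth and cell state, with medians of 20747, 17327 and 3905 UMIs in clusters 0, 5 and 6. Correlations can follow such differences, so the values are descriptions.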

How the data were processed

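Single-cell libraries were made by the authors from THY1+ enriched testis cells with added total testis cells. Per the labels and the submitters' processing notes, Cell Ranger 2.1.0 and the mm10 build were used, and the authors deposited raw UMI counts per gene and barcode. Barcodes held 2655 to 44915 UMIs.

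Barcodes with fewer than 500 genes (10), a mitochondrial share of 10% or more (36) or a doublet call by scrublet (4; scanpy 1.11.5, expected rate 0.01, seed 0) were left out. Cells were clustered with Seurat 5.3.0 in R 4.3.3 with the study's 14 principal components and resolution 0.5, but on 1 library with somatic cells kept, where the study merged the genotypes and left somatic cells out. The 898 variable genes held no member. Clusters were named from marker lists by the largest difference of mean log-normalized expression, with the barcode richest in Hba-a1 left out of that step alone. The rule that left 1 cluster unnamed was set after the clusters were seen. Names were rebuilt and may differ from the study's. The study reports more wild-type spermatogonia than the 324 germ cells kept here, and the reason was not tested.

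Intervals are exact (Poisson for CPM, binomial for shares, conditional binomial for ratios). A count of 0 was given a limit of 3 UMIs, and bounds against it leave out the counting error of the other group. Shares at 5000 UMIs are expected shares over draws without replacement, in cells with that depth. Genes were named as the members, the gene lists (largest and smallest ratios among genes with at least 20 UMIs), the 5 most alike genes outside the members for each member with at least 100 germ cell UMIs, and genes said to be chosen later. The members and lists were chosen with earlier results of these data known. The computations were tested on simulated cells that differ by counting error alone, so the intervals were not tested against further spread between cells. Alternatives covered filters, clustering, ranges, denominators and thinning.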

Additional observations from a re-analysis of the deposited data

How the results depend on the processing

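The count of members at least 2-fold higher in the low range was 5 under all alternatives of filters, clustering, ranges and denominators that gave a value. No value came from the other 2: cut by Kit alone, no cell reached the high range, and with mitochondrial UMIs limited to under 5%, no member had 50 UMIs in the low and high ranges. The latter limit left 67 germ cells, with a median of 5316 UMIs, 5 Gfra1 UMIs and 12 Ret UMIs. There the log2 ratio was -0.30 for Bcl6b, 0.70 for Lhx1 and 1.70 each for Gfra1 and Etv5. Few UMIs stood behind these ratios, with 1 Lhx1 UMI in the high range, so the negative sign for Bcl6b is not a measured reversal. At this limit the share of low cells with Gfra1 and Ret was 1.62%. That share was 6.73% as reported at 5000 UMIs per cell, 2.85% at 3000 UMIs and 35.0% without thinning, which follows from the depth. Taking germ cells by a UMI of Ddx4 or Dazl gave 410. Gdnf in Sertoli-like cells ranged from 24.7 to 28.6 CPM over the 10 alternatives run for it. Allowing members as variable genes changed nothing because none was variable. Of 3 alternatives added after the data were seen, cluster 0 alone gave a count of 3 and cluster 6 left out a count of 5. Without cluster 0 no member could be counted, and Pou3f1 had a log2 ratio of -1.70. No paired analysis was possible because there is 1 library. Levels under about 3 UMIs per class could not be measured at this depth.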
